A study of Rattus norvegicus with 12 samples.

Results

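Hepatocellular carcinoma (HCC) tissue was compared with liver at the earlier hepatitis stage of the same rat model, gene by gene. The comparison took the 3 arrays with the hepatocarcinoma label and the 3 with the hepatitis label, 6 of the 12 arrays of the study, and all 14213 genes that the array's annotation names singly. The rats were male adult Sprague-Dawley animals. Both groups received diethylnitrosamine (DEN), an alkylating carcinogen that liver cells activate, at 70 mg/kg by injection into the abdomen once per week, in a course of 10 weekly doses. The hepatitis rats were killed at week 5 and the HCC rats at weeks 23 to 24. The labels count these weeks from the DEN treatment and do not say whether from its start or its end, so the hepatitis rats may have been within the course of injections or past it. The tissue label is liver for both groups, while the design text speaks of HCC tissue for the later group. The other arrays, 3 of control liver from rats given distilled water and 3 of cirrhosis at weeks 13 to 14, enter here through the estimate of each gene's spread and as levels for reference. Nothing in the labels ties an array to an animal of its own. The p-values therefore cover the spread between these arrays, which may be technical. The sources used here give no histology, no share of tumour cells and no time for the controls.

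DEN is converted by cytochrome P450 enzymes of hepatocytes, chiefly those around the central vein, to a species that alkylates DNA, and the damage calls on p53, which switches on genes of cell cycle arrest, repair and death. Repeated doses lead through inflammation and scarring to tumours of hepatocyte origin. Such tumours are known to re-express genes of the fetal liver, to divide, and to lose enzymes that only the mature hepatocyte makes, such as those of the urea cycle, bile acid synthesis and drug oxidation.

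The values are linear array intensities, and differences are of log2(intensity + 16), HCC minus hepatitis, with the standard error of a limma fit over all 12 arrays. A gene was called where limma's Benjamini-Hochberg adjusted p over all 14213 genes was under 0.05, and "rose" and "fell" are used of called genes. The HCC arrays varied more among themselves than the hepatitis arrays: the median SD per gene was 0.207 against 0.104 on the log2 scale. Control and cirrhosis arrays had median SDs of 0.0857 and 0.0724. The spread taken from all 12 arrays is thus smaller than that of the HCC arrays alone, and counts from the 6 arrays alone are given beside most lists. The difference between the 3′ and 5′ probe sets of Gapdh, which grows as RNA is degraded or labelled less far, was 0.38, 0.50 and 0.69 on the hepatitis arrays and 1.35, 2.43 and 3.14 on the HCC arrays, on the same log2 scale. Counts from a fit with this difference as a covariate are therefore given too. The covariate does not overlap between the 2 groups, so that such a fit also takes away part of what the groups differ in. HCC replicate 3 had the highest of these differences and HCC replicate 2 the next.

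In all, 2544 genes (17.9%) rose and 2428 (17.1%) fell, and the median difference over all genes was 0.01. At least 2-fold changes on this scale numbered 567 among the genes that rose and 943 among those that fell, and at least 8-fold changes 15 and 53. In 2363 of the genes that rose and 2271 of those that fell, the 3 HCC arrays lay wholly outside the range of the 3 hepatitis arrays. Over all 14213 genes, called or not, this held for 2976 with HCC higher and 2811 with HCC lower. With the 6 arrays alone, 1126 of the genes that rose and 1252 of those that fell were called in the same direction. With the Gapdh covariate these numbers were 803 and 774.

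**Figure D1:**
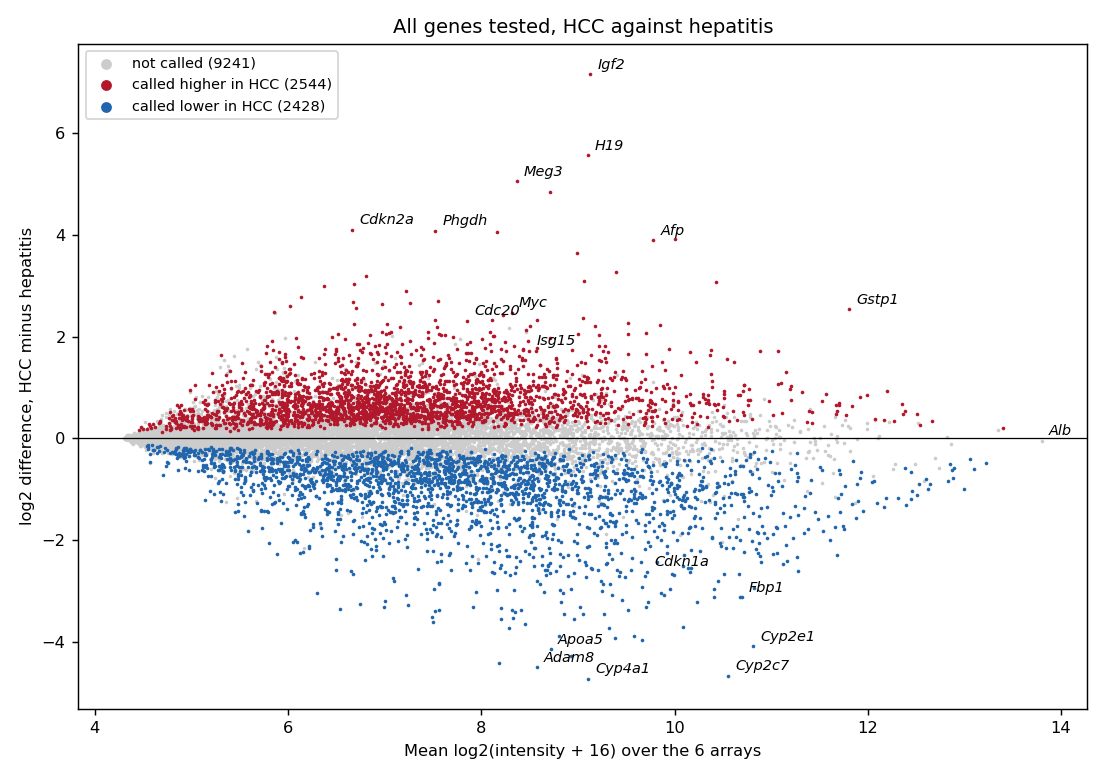
Each point is 1 of the 14213 genes, with its mean log2(intensity + 16) over the 6 arrays on the horizontal axis and the log2 difference, HCC minus hepatitis, on the vertical axis; red points were called higher and blue points lower. The 2544 red and 2428 blue points lie at every intensity, and Igf2 stands highest at 7.15.

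The largest rise was that of Igf2, the fetal insulin-like growth factor that is imprinted and normally silent in adult rat liver. Its intensity was 27.6, 30.2 and 35.4 on the 3 hepatitis arrays and 9839, 2343 and 12790 on the 3 HCC arrays. All 3 HCC arrays lay far above all 3 hepatitis arrays, with HCC replicate 2 the lowest of them, and the difference was 7.15 ± 0.49 (adjusted p = 1.87e-05). Only 1 of the 4 probe sets of Igf2 was called, and the mean of all 4 differed by 1.79. H19, the imprinted noncoding RNA that lies beside Igf2, read 87.7, 62.1 and 46.8 in hepatitis and 4041, 3004 and 4388 in HCC. Its groups did not overlap and it rose by 5.56 ± 0.38 (adjusted p = 1.84e-05), and its mean in control liver, 643, lay between them. Meg3, a noncoding RNA of another imprinted locus, read 171, 20.7 and 11.4 in hepatitis and 2848, 838 and 2775 in HCC, a difference of 5.05 ± 0.66 (adjusted p = 4.19e-04). Hepatitis replicate 1 was well above its group for Meg3, and this also held for the gene annotated as Cdh22, a cadherin, at 376, 23.8 and 14.8 in hepatitis and 3371, 993 and 3280.3 in HCC. Cdh22 rose by 4.84 ± 0.84 (adjusted p = 0.00174) on 1 of its 2 probe sets and by 2.35 as their mean.

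Afp, the fetal serum protein used as a marker of HCC, read 212, 257 and 175 in hepatitis and 9199, 576 and 7098 in HCC. HCC replicates 1 and 3 were more than 10 times replicate 2, which was itself above every hepatitis array, and Afp rose by 3.89 ± 0.82 (adjusted p = 0.00496). Its adjusted p was 0.0636 from the 6 arrays alone and 0.0822 with the Gapdh covariate, so that it was called in neither. Golm1, a Golgi membrane protein, rose by 1.85 ± 0.37. Ggt1, gamma-glutamyl transferase, a marker of altered liver cell foci and tumours, rose by 1.68 ± 0.49. From the 6 arrays alone neither Golm1 (adjusted p = 0.0527) nor Ggt1 (adjusted p = 0.125) was called. With the Gapdh covariate both were (adjusted p = 0.0073 and 0.0165). Ggt1 missed the threshold without hepatitis replicate 2 (adjusted p = 0.0816) and without hepatitis replicate 3 (adjusted p = 0.0756). Gpc3, a membrane proteoglycan of HCC, was at 73.4, 39.1 and 44.8 in hepatitis and at 1705, 39.7 and 193 in HCC. Replicate 2 lay within the hepatitis range, and Gpc3 was not called (2.02 ± 0.94, adjusted p = 0.125). It passed the threshold without HCC replicate 2 (3.16, adjusted p = 0.00514) and with the Gapdh covariate (5.37, adjusted p = 0.0314). Of the 17 measured oncofetal and imprinted growth genes 5 rose (29.4%, beside 17.9% of all genes) and 0 fell. Their median difference was 0.73 beside 0.01 over all genes. Without HCC replicate 2 the count that rose was 9, from the 6 arrays alone 2, and with the Gapdh covariate 9. Those called with the covariate held 4 of the 5. The medians of HCC replicates 1, 2 and 3 against the hepatitis mean were 2.07, 0.03 and 0.28.

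Cdkn2a, which encodes the cell cycle inhibitor p16 and the p53 activator ARF, had the smallest error among the 10 largest rises. It read 8.43, 9.11 and 8.09 in hepatitis and 458, 399 and 361 in HCC. The 3 arrays of each group lay close together, and the groups differed by 4.10 ± 0.09 (adjusted p = 2.37e-08). Since the hepatitis values lie under the added 16, this difference depends on that constant: it was 2.69 with 64 added.

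**Figure D2:**
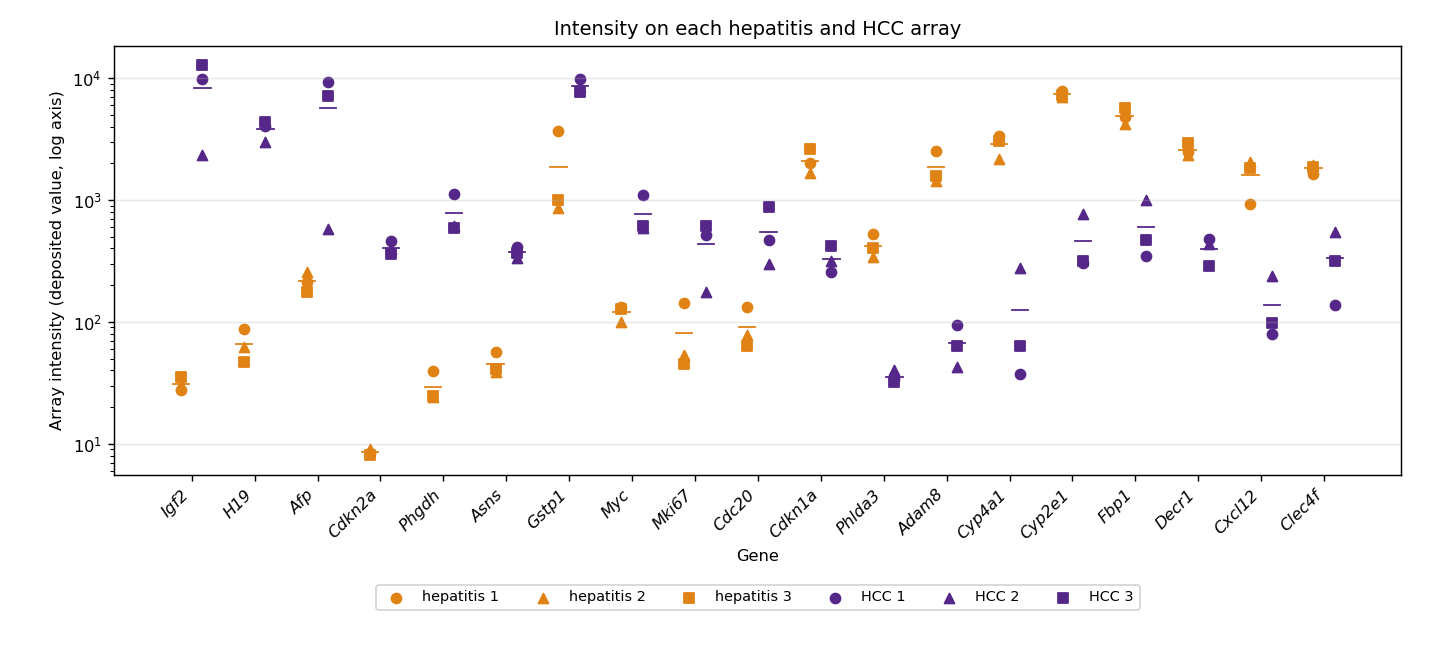
Intensity of 19 named genes on each hepatitis (orange) and HCC (purple) array, on a log axis; circles, triangles and squares are replicates 1, 2 and 3, and short lines are group means. Igf2, H19 and Cdkn2a sit above every hepatitis array on all 3 HCC arrays, Cdkn1a, Phlda3 and Adam8 below, and HCC replicate 2 (triangle) is the lowest HCC array for Afp and Mki67 and the highest for Cyp4a1, Cyp2e1 and Fbp1.

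Genes of cell division rose. Of 33 measured cyclins and parts of the mitotic machinery 22 rose and 0 fell, with a median difference of 1.08. Cdc20, which activates the ubiquitin ligase that ends metaphase, read 133, 78.3 and 63.1 in hepatitis and 471, 298 and 874 in HCC. The groups did not overlap, and Cdc20 rose by 2.31 ± 0.34 (adjusted p = 7.65e-04), or by 0.83 as the mean of its 5 probe sets, 4 of which were called. Mki67, the protein behind the Ki-67 stain of dividing cells, read 143, 53.1 and 45.3 in hepatitis and 513, 175 and 612 in HCC, a difference of 2.19 ± 0.49 (adjusted p = 0.00668). Hepatitis replicate 1 was the highest of its group and came near HCC replicate 2, the lowest of the other. Ccna2, the cyclin of S and G2 phase, and Ccne1, the cyclin of entry into S phase, rose by 2.05 ± 0.46 and 1.88 ± 0.39. Cdk1, the kinase that drives mitosis, read 185, 94.1 and 66.4 in hepatitis and 505, 169 and 418 in HCC. Here HCC replicate 2 lay below hepatitis replicate 1, the difference was 1.51 ± 0.44 (adjusted p = 0.023), and the adjusted p was over the threshold without hepatitis replicate 2 (0.0691) or 3 (0.0838) and without HCC replicate 1 (0.0706) or 3 (0.0736). The count of 22 was 14 without hepatitis replicate 2, 14 without hepatitis replicate 3, 3 from the 6 arrays alone and 6 with the Gapdh covariate. The summed intensity of the list was 1695 to 3476 on the hepatitis arrays and 3587 to 8815 on the HCC arrays, so that the sums did not overlap. The mean of the log2 values, in which dim members weigh as much as bright ones, was about equal on hepatitis replicate 1 and HCC replicate 2.

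Of 20 genes of DNA replication and nucleotide supply 13 rose and 0 fell (median 0.91). Mcm4, a subunit of the replicative helicase, read 145, 101 and 79.9 in hepatitis and 658, 256 and 445 in HCC and rose by 1.85 ± 0.31 (adjusted p = 0.00148). The helicase subunit Mcm5 rose by 1.43 ± 0.30, the licensing factor Cdt1 by 1.47 ± 0.31 and Uhrf1, which guides maintenance methylation of new DNA, by 1.26 ± 0.31. Of these genes 4 rose from the 6 arrays alone, Mcm4 among them, and with the Gapdh covariate 7. Among 13 DNA methylation and Polycomb genes 8 rose and 0 fell (median 0.61). Dnmt3a, a DNA methyltransferase that sets new marks, read 135, 119 and 119.8 in hepatitis and 273, 254 and 363 in HCC. Its groups did not overlap and it rose by 1.14 ± 0.12 (adjusted p = 1.15e-04), or by 0.62 as the mean of its 2 probe sets. Ezh2, the Polycomb methyltransferase, rose by 1.02 ± 0.23 and Dnmt1, the maintenance methyltransferase, by 0.90 ± 0.20. Only 1 gene of this list, Dnmt3a, rose from the 6 arrays alone, and 3 rose with the Gapdh covariate.

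Many genes of mitosis carry in their promoters a cell cycle homology region (CHR, TTTGAA), read by the DREAM and MuvB complexes, and CCAAT boxes, read by NF-Y. The promoters of the mitosis list were therefore searched for TTTGAA and CCAAT on both strands, over 250 bases before and 50 after the start. Shown are the called members with the largest rises that had an entry, to set promoters with several motifs beside one with none. Sequences are RefSeq's on GRCr8, from a table that held a promoter for 27 of the 33 measured members and none for Ccna2. They are printed 5′ to 3′ in the direction of the gene, all on the minus strand, with both motifs in capitals, a CCAAT on the other strand reading ATTGG. They cover chr5:137255750-137256049 for Cdc20, chr1:199952544-199952843 for Mki67, chr8:71320535-71320834 for Kif23, a kinesin of cell separation that rose by 1.77 ± 0.51, and chr1:99927860-99928159 for Ccne1.
Cdc20: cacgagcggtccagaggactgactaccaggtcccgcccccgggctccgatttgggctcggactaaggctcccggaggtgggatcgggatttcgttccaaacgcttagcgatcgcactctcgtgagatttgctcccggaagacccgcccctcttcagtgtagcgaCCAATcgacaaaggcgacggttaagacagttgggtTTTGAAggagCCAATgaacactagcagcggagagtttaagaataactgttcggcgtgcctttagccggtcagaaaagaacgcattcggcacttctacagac
Mki67: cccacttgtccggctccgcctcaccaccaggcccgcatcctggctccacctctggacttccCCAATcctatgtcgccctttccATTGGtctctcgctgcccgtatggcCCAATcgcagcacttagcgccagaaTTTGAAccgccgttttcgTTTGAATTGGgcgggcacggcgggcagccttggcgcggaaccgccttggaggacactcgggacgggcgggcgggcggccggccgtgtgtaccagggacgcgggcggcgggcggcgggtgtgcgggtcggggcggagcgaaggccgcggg
Kif23: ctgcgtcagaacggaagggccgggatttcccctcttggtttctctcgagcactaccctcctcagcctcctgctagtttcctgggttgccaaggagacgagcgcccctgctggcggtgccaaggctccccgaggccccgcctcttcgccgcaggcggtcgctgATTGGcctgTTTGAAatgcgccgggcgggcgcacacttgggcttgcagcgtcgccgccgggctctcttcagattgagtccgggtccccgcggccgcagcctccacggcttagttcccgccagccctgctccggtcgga
Ccne1: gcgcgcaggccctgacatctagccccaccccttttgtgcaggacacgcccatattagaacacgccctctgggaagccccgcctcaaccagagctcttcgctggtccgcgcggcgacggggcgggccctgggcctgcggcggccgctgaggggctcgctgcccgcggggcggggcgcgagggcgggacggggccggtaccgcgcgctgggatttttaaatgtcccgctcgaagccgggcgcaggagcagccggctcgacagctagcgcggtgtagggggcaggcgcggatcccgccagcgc
Cdc20 held 1 CHR, which began 51 bases before the start, with a CCAAT 86 and another 41 bases before it. Mki67 held 2 CHRs, at 117 and 99 bases, and 4 CCAAT boxes, of which the one at 94 overlaps the nearer CHR by 1 base. Kif23 held 1 CHR at 79 bases and 1 reversed CCAAT at 88. Ccne1 held neither in this window. Of the 27 promoters of measured members 20 (74.1%) held the CHR, 21 (77.8%) a CCAAT and 18 (66.7%) both. Of the 18 promoters of members that rose, 14 (77.8%) held the CHR, 12 (66.7%) a CCAAT and 12 both. Among 11735 promoters of all genes tested the shares were 12.3%, 37.3% and 5.02%. A match describes letters only, and the share with a CHR was close in the members that rose and in all measured members.

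Targets of p53 went the other way. Of 17 measured targets 13 fell and 1 rose, with a median difference of -0.80, and 9 fell from the 6 arrays alone and 10 with the Gapdh covariate. Phlda3, which restrains Akt signalling, read 521, 339.8 and 404 in hepatitis and 34.2, 39.9 and 32.3 in HCC. All HCC arrays lay within a narrow range far below the hepatitis arrays, and Phlda3 fell by 3.07 ± 0.13 (adjusted p = 2.29e-06). Cdkn1a, the p21 inhibitor of cyclin-dependent kinases, read 2011, 1669 and 2595 in hepatitis and 255, 315 and 419 in HCC, a difference of -2.61 ± 0.31 (adjusted p = 2.54e-04). Ccng1, cyclin G1, fell by 2.64 ± 0.19, from a hepatitis mean of 1253 ± 301 to 188 ± 47.6 (SD, n = 3). Plk2, a kinase induced by stress, differed by -1.72 ± 0.23 and the death receptor Fas by -1.44 ± 0.14. Mdm2, the ligase that marks p53 for destruction, fell by 0.67 ± 0.18. The exception was Ddit4, an inhibitor of mTORC1 that hypoxia and glucocorticoids also induce, which rose by 1.11 ± 0.22. Among 13 genes of the Bcl2 family and inhibitors of apoptosis 4 fell (30.8%) and 2 rose (15.4%), and the counts in the same order were 3 and 1 from the 6 arrays alone and 2 and 2 with the Gapdh covariate. Birc2, an inhibitor of apoptosis, differed by -0.98 ± 0.10 (adjusted p = 1.29e-04) and its relative Birc3 by 0.80 ± 0.20 (adjusted p = 0.0113).

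Adam8, a membrane protease of activated macrophages and other cells, had the third largest fall among called genes with a symbol of their own whose groups did not overlap. It read 2524, 1439 and 1586 in hepatitis and 94.1, 42.9 and 63.6 in HCC, a difference of -4.50 ± 0.26 (adjusted p = 1.07e-05), while its means in control and cirrhosis were 20.6 and 109.6. Hepatitis was thus the group that stood apart for this gene. Of its 2 probe sets 1 was called, and their mean differed by -2.25.

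Genes of serine synthesis and the amino acid response rose. Of 21 measured members 11 rose and 0 fell (median 0.72), 9 of them also counted from the 6 arrays alone and 6 with the Gapdh covariate. Phgdh, the first enzyme of serine synthesis from glycolysis, read 39.2, 24.0 and 24.5 in hepatitis and 1127, 614 and 589 in HCC. The groups lay far apart and it rose by 4.08 ± 0.23 (adjusted p = 8.93e-06). Psat1, the next enzyme of that path, read 89.4, 42.3 and 40.7 in hepatitis and 1991, 605 and 1258 in HCC, a difference of 4.05 ± 0.37 (adjusted p = 6.98e-05). Asns, asparagine synthetase, a target of the stress factor Atf4, was tight within both groups, at 56.7, 38.9 and 41.0 in hepatitis and 413, 337 and 369 in HCC, and rose by 2.67 ± 0.13 (adjusted p = 5.84e-06). The cationic amino acid transporter Slc7a1 rose by 2.19 ± 0.27, or by 1.11 as the mean of its 3 probe sets, and the mitochondrial folate enzyme Mthfd2 by 1.72 ± 0.23. In control liver Phgdh, Psat1 and Asns had means of 752, 875 and 697, and in cirrhosis 81.4, 118 and 62.0. The HCC means of these genes thus lay much nearer to control than the hepatitis means did.

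Among 28 targets of NRF2, the transcription factor of the response to oxidants and electrophiles, and phase II enzymes 13 rose and 4 fell (median 0.45). Gstp1, the placental glutathione transferase that marks preneoplastic foci in rat liver, read 3688, 854 and 999 in hepatitis and 9755, 8430.2 and 7696 in HCC. Hepatitis replicate 1 lay between the other hepatitis arrays and the HCC arrays, and Gstp1 rose by 2.53 ± 0.44 (adjusted p = 0.00173). Akr1b8, an aldo-keto reductase, was at 419, 143 and 133 in hepatitis and 3224, 1482 and 1857 in HCC, again with hepatitis replicate 1 the highest of its group, and rose by 3.26 ± 0.52 (adjusted p = 0.0011). Slc7a11, the cystine importer, rose by 2.67 ± 0.38, thioredoxin reductase Txnrd1 by 1.66 ± 0.23 and the efflux pump Abcc3 by 1.89 ± 0.24. The members that fell were enzymes and a transporter of the mature hepatocyte: Gstm2 (-3.37 ± 0.61), Aldh1a1 (-2.96 ± 0.38), Ephx1 (-1.73 ± 0.33) and Abcc2 (-1.56 ± 0.49). Of the list 9 rose and 3 fell from the 6 arrays alone, and 9 and 0 with the Gapdh covariate.

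Myc, the growth-promoting transcription factor, read 133, 99.5 and 128 in hepatitis and 1090.5, 592 and 609 in HCC. The groups did not overlap and it rose by 2.47 ± 0.26 (adjusted p = 1.32e-04). It stood among 15 pericentral and Wnt target genes, of which 3 rose (20.0%, beside 17.9% of all genes) and 7 fell (46.7%, beside 17.1%). From the 6 arrays alone 4 fell and with the Gapdh covariate 3. Lef1, a factor through which beta-catenin acts, and Ctnnb1, beta-catenin itself, rose by 0.51 ± 0.10 and 0.49 ± 0.12, whereas the Wnt feedback gene Axin2 differed by -0.69 ± 0.23 and Ccnd1, cyclin D1, by -0.94 ± 0.24. Glul, glutamine synthetase of the pericentral hepatocyte, was not called (-0.34 ± 0.19, adjusted p = 0.201). Lect2, a secreted pericentral protein, read 1056, 1306 and 1015 in hepatitis and 101, 214 and 88.3 in HCC and fell by 3.01 ± 0.25 (adjusted p = 3.96e-05).

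Of 24 genes of the Egf receptor, Met and Fgf receptor systems 4 rose and 5 fell, shares near those of all genes, with 1 and 2 from the 6 arrays alone and 7 and 2 with the Gapdh covariate. Fgfr3 read 189, 160.3 and 149 in hepatitis and 383, 309 and 281 in HCC and rose by 0.90 ± 0.18 (adjusted p = 0.00373). Hgf, the ligand of Met, which stellate cells make, was at 44.6, 43.2 and 32.2 in hepatitis and 13.5, 15.3 and 13.9 in HCC, a difference of -0.88 ± 0.10 (adjusted p = 2.03e-04). Both counts were lower without hepatitis replicate 2 (2 and 3) or HCC replicate 3 (2 and 3), the count that rose without hepatitis replicates 1 (2) or 3 (1), and the count that fell without HCC replicate 1 (3). In the growth hormone and Igf axis 0 of 15 genes rose and 4 fell (26.7%, beside 17.1% of all genes). The growth hormone receptor Ghr read 656, 1121 and 980.3 in hepatitis and 94.4, 437 and 208 in HCC, a difference of -2.03 ± 0.40 (adjusted p = 0.00374). Igf1, the adult hormone of the axis, was at 3130.3, 3477 and 2877 in hepatitis and 712, 3033 and 595 in HCC. HCC replicate 2 lay within the hepatitis range for Igf1, which fell by 1.52 ± 0.48 (adjusted p = 0.0324) and was called without HCC replicate 2 but not without any other single hepatitis or HCC array (adjusted p = 0.0644 to 0.109). From the 6 arrays alone 0 genes of this axis fell, with the Gapdh covariate 1, and 2 fell without hepatitis replicate 2, hepatitis replicate 3, HCC replicate 1 or HCC replicate 3.

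Lists of proteins that hepatocytes secrete held many genes that fell. Alb, albumin, was near the top of the array's scale on all 6 arrays, at 14681, 14013 and 14613 in hepatitis and 14835, 14681 and 12686 in HCC, a level that matches the liver label. Alb was not called (-0.04 ± 0.06, adjusted p = 0.681). It was the highest value on the 3 hepatitis arrays and on HCC replicates 1 and 2, where a change may not show. In bulk tissue fewer hepatocytes and less RNA per hepatocyte cannot be told apart. All 15 measured complement factors fell, against 17.1% of all genes, with a median difference of -1.30. Mbl1, the mannose-binding lectin that starts the lectin pathway, read 876, 1212 and 1036 in hepatitis and 122, 224 and 76.3 in HCC, a difference of -2.85 ± 0.28 (adjusted p = 8.84e-05). C8g, a subunit of the lytic complex, read 1891, 2868 and 2923 in hepatitis and 219, 1405 and 172 in HCC, with HCC replicate 2 far above the other HCC arrays, and fell by 2.67 ± 0.61 (adjusted p = 0.00723). The count of factors that fell was 6 from the 6 arrays alone and 3 with the Gapdh covariate. Of 30 plasma and coagulation proteins 20 fell and 0 rose (median -0.88). Prothrombin, F2, read 4858, 5612 and 5229 in hepatitis and 1909.8, 3473 and 880.5 in HCC and fell by 1.53 ± 0.37 (adjusted p = 0.00959). For F9, a coagulation factor, HCC replicate 2 (3759.8) was close to the hepatitis arrays (3939, 4107 and 4242) while HCC replicates 1 and 3 were at 613 and 797. The plasma protein count was 9 without hepatitis replicate 2, 9 without hepatitis replicate 3, 11 without HCC replicate 1, 12 without HCC replicate 3, 10 after quantile normalization, 2 from the 6 arrays alone and 1 with the Gapdh covariate.

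Among 11 acute phase proteins 7 fell and 1 rose (median -1.15). The one that rose was A2m, alpha-2-macroglobulin, an acute phase and fetal protein of the rat. It read 195, 573 and 135 in hepatitis and 4833, 4168 and 3112 in HCC, a difference of 3.91 ± 0.49 (adjusted p = 3.35e-04), beside a control mean of 2199. Crp, C-reactive protein, read 2839, 3169 and 2815 in hepatitis and 112, 664 and 75.6 in HCC and fell by 3.89 ± 0.58 (adjusted p = 7.65e-04). Of these proteins 4 fell from the 6 arrays alone and 2 with the Gapdh covariate.

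Of 19 liver transcription factors 10 fell and 0 rose (median -0.64). Onecut1, a factor of hepatocyte and biliary development, read 539, 228 and 578 in hepatitis and 72.9, 115 and 28.3 in HCC, a difference of -2.43 ± 0.57 (adjusted p = 0.00818). Foxa1, a pioneer factor of liver chromatin, read 55.8, 74.3 and 61.5 in hepatitis and 7.73, 30.9 and 16.4 in HCC and fell by 1.27 ± 0.24. Nr1h4, the bile acid receptor FXR, differed by -1.26 ± 0.40 and Nr1i3, the xenobiotic receptor CAR, by -1.11 ± 0.23. Hnf4a (-0.07 ± 0.16, adjusted p = 0.784), Foxa2 (0.16 ± 0.18, adjusted p = 0.556) and Cebpa (0.11 ± 0.33, adjusted p = 0.843), which are central to hepatocyte identity, were not called. The count that fell was 6 without hepatitis replicate 3, 5 from the 6 arrays alone and 3 with the Gapdh covariate.

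Xenobiotic P450 enzymes and oxidases fell in 17 of 25 cases and rose in 0 (median -1.59). Cyp4a1, a fatty acid hydroxylase under PPAR alpha, had the largest fall among genes with a symbol of their own. It read 3357, 2164 and 3042 in hepatitis and 37.2, 278 and 63.5 in HCC, a difference of -4.71 ± 0.50 (adjusted p = 1.40e-04). Cyp2c7 was at 7111, 7564 and 7970.2 in hepatitis and 236, 899 and 101 in HCC, a difference of -4.66 ± 0.83 (adjusted p = 0.0021). Its mean was 953 in control liver and 6398 in cirrhosis, so that hepatitis stood well above control for this gene. Cyp2c7 was not called with the Gapdh covariate (-3.71, adjusted p = 0.166). Cyp2e1, the enzyme that activates DEN, read 7851, 7005 and 7259 in hepatitis and 306, 762 and 319 in HCC. Every HCC array lay below every hepatitis array for these enzymes, HCC replicate 2 nearest, and Cyp2e1 fell by 4.08 ± 0.28 (adjusted p = 1.84e-05). From the 6 arrays alone 10 of the list fell, and with the Gapdh covariate 10.

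Of 20 genes of bile acid synthesis and transport 16 fell and 0 rose, with the lowest median of any list, -2.35. Cyp8b1, the enzyme that makes cholic acid, read 1754, 1354 and 3993 in hepatitis and 82.6, 133 and 76.8 in HCC, a difference of -4.27 ± 0.34 (adjusted p = 3.47e-05). Cyp7a1, the rate-limiting enzyme of bile acid synthesis, read 971, 1410.3 and 1774 in hepatitis and 31.2, 534 and 190.4 in HCC, with a wide spread among the HCC arrays, and fell by 2.96 ± 0.71 (adjusted p = 0.00976). The uptake transporter Slc10a1 differed by -2.73 ± 0.69 and the export pump Abcb11 by -2.52 ± 0.58. Amacr and Acox2, which shorten the side chain of bile acids in peroxisomes, differed by -3.30 ± 0.30 and -3.21 ± 0.36. The count that fell was 10 from the 6 arrays alone and 9 with the Gapdh covariate. Of 8 Slc22 organic ion transporters 4 fell, Slc22a7 by the largest amount (-2.05 ± 0.37), 1 of them from the 6 arrays alone and 0 with the Gapdh covariate.

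Genes known to differ between male and female liver of rats or mice through the pattern of growth hormone fell on both sides. Of 9 male-biased genes 7 fell and 0 rose (median -1.64), and of 12 female-biased genes 7 fell and 0 rose (median -2.10). Against the hepatitis mean, the medians of HCC replicates 1, 2 and 3 were -2.54, -1.47 and -1.92 for the male-biased list. For the female-biased list they were -3.19, -0.31 and -2.51, so that HCC replicate 2 differed little. The falls numbered 5 and 5 from the 6 arrays alone and 5 and 4 with the Gapdh covariate. Hsd3b5, a male-biased steroid dehydrogenase, read 1080, 2365 and 1754 in hepatitis and 190.1, 539 and 168 in HCC and fell by 2.59 ± 0.39 (adjusted p = 8.24e-04). Cyp3a9, a P450 of female rats named after its values were seen, read 202, 160.3 and 371 in hepatitis and 19.7, 97.3 and 24.2 in HCC and fell by 2.17 ± 0.41 (adjusted p = 0.00286). The female-biased list also holds Sult1e1, the estrogen sulfotransferase, of which male rat liver makes more, and without it 6 of 11 genes fell, a count added after the data were seen. Sult1e1 read 4223, 4617 and 3002 in hepatitis and 153, 816 and 179 in HCC and fell by 3.69 ± 0.53 (adjusted p = 6.12e-04). Cyp2c11, the most abundant male P450, read 883, 1475 and 313 in hepatitis and 115, 536 and 217 in HCC. Its groups overlapped and it was not called (-1.57 ± 0.59, adjusted p = 0.0656), but it passed the threshold without hepatitis replicate 3 (-2.18, adjusted p = 0.0155) or HCC replicate 2 (-2.12, adjusted p = 0.0134), with 1 added in place of 16 (adjusted p = 0.0497) and with the dimmest genes left out (adjusted p = 0.0398).

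Genes of nitrogen and amino acid disposal fell with few exceptions. Of 38 genes of the urea cycle and amino acid catabolism 35 fell and 0 rose (median -1.82), 22 fell from the 6 arrays alone and 23 with the Gapdh covariate. Sds, serine dehydratase, which burns serine for glucose, read 2097, 327 and 3280.3 in hepatitis and 31.2, 85.8 and 36.6 in HCC. The hepatitis arrays ranged widely, yet all lay above the HCC arrays, and Sds fell by 4.40 ± 0.69 (adjusted p = 0.00102). Its mean was 152 in control liver and 839 in cirrhosis, so that hepatitis stood above control and HCC below it. Gnmt, the glycine methyltransferase that disposes of methyl groups, read 1226, 1702 and 2343 in hepatitis and 49.5, 295 and 63.0 in HCC, a difference of -3.87 ± 0.49 (adjusted p = 3.25e-04). Agxt, which clears glyoxylate, differed by -3.52 ± 0.36 and Bhmt, which remethylates homocysteine, by -3.03 ± 0.48. Within the urea cycle Ass1 and Asl differed by -1.71 ± 0.24 and -2.11 ± 0.32, and both mitochondrial enzymes of the cycle, Cps1 and Otc, were not called (-0.49 ± 0.18, adjusted p = 0.054, and -0.66 ± 0.24, adjusted p = 0.0568). Cps1 intensity was 6903, 6553 and 6869.8 in hepatitis and 3334, 5571 and 5991 in HCC.

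Genes of fatty acid oxidation fell, and their count stayed between 21 and 25 under every alternative run. Of 26 genes 25 fell and 0 rose (median -1.92), 22 fell from the 6 arrays alone and 21 with the Gapdh covariate. Decr1, a mitochondrial enzyme for unsaturated fatty acids, read 2472, 2332 and 2927 in hepatitis and 476, 432 and 285 in HCC. All 3 HCC arrays were low, replicate 3 lowest, and Decr1 fell by 2.67 ± 0.18 (adjusted p = 1.84e-05). Eci2, an enoyl-CoA isomerase, read 1715, 1391 and 1641 in hepatitis and 176, 266 and 203 in HCC, a difference of -2.81 ± 0.13 (adjusted p = 5.84e-06). Ehhadh, the peroxisomal bifunctional enzyme, differed by -3.33 ± 0.32, Cpt1a, the gate of mitochondrial import, by -2.37 ± 0.25 and Acadm, the medium-chain dehydrogenase, by -2.55 ± 0.16. Pdk4, the kinase that spares glucose when fat is burned, differed by -3.41 ± 0.24, or by -2.19 as the mean of its 2 probe sets. The member that did not fall was Cpt1b, the muscle form of the carnitine transferase (0.25 ± 0.20, adjusted p = 0.383). Here HCC replicate 2 was no nearer to hepatitis than replicate 1: the list medians of HCC replicates 1, 2 and 3 against the hepatitis mean were -1.73, -1.89 and -2.45. Ppara, the receptor that controls many of these genes, was not called (0.01 ± 0.15, adjusted p = 0.979).

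Among 22 genes of fatty acid synthesis 6 rose (27.3%, beside 17.9% of all genes) and 4 fell (18.2%, beside 17.1%). Fasn, fatty acid synthase, read 207, 435 and 177 in hepatitis and 803, 2116 and 1069 in HCC and rose by 2.20 ± 0.38 (adjusted p = 0.00168), with a control mean of 1319.9. Scd2, a desaturase of fetal liver and other tissues, read 194, 158 and 67.1 in hepatitis and 2832, 1855 and 1069 in HCC, a rise of 3.63 ± 0.40 (adjusted p = 1.65e-04), or 1.05 as the mean of its 4 probe sets. Elovl6, a fatty acid elongase, rose by 2.09 ± 0.32, and Acly, which makes cytosolic acetyl-CoA, by 1.26 ± 0.31. Thrsp, a lipogenic protein of liver and fat, read 239, 1024 and 823 in hepatitis and 16.5, 157 and 10.7 in HCC and fell by 3.51 ± 0.69 (adjusted p = 0.00357). Of the list 4 rose and 3 fell from the 6 arrays alone, and 3 and 0 with the Gapdh covariate. In cholesterol synthesis and uptake 1 of 19 genes rose, Mvd (1.01 ± 0.21), and 0 fell, and the HCC arrays differed among themselves: their medians against the hepatitis mean were 0.17, 0.75 and -0.63. Without hepatitis replicate 2 the count that rose was 5 and without HCC replicate 3 it was 2, and without HCC replicate 2 the count that fell was 5. Of the list 1 rose from the 6 arrays alone and 0 with the Gapdh covariate.

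In gluconeogenesis, glycogen and fructose metabolism 7 of 14 genes fell and 1 rose (median -1.11). Fbp1, fructose bisphosphatase, read 4759.8, 4213 and 5727 in hepatitis and 344, 995 and 470.4 in HCC, a difference of -3.12 ± 0.30 (adjusted p = 8.84e-05). Khk, ketohexokinase of fructose use, differed by -1.55 ± 0.32, and Gys2, liver glycogen synthase, by -1.91 ± 0.31. The count that fell was 11 without HCC replicate 2, 4 from the 6 arrays alone and 6 with the Gapdh covariate. Of 18 glycolytic isoforms and glucose transporters 2 rose (11.1%, beside 17.9% of all genes) and 2 fell (11.1%, beside 17.1%). From the 6 arrays alone 0 rose and 1 fell, and with the Gapdh covariate 6 and 0. The count that rose was 0 without hepatitis replicate 1 or 2 and 4 without HCC replicate 2. Ldha, lactate dehydrogenase A, read 5282, 4127 and 5459 in hepatitis and 2522, 1441 and 797 in HCC, a difference of -1.77 ± 0.32 (adjusted p = 0.00218) that became -0.24 with the Gapdh covariate (adjusted p = 0.59). Aldoa, the muscle and fetal aldolase, rose by 1.06 ± 0.33 and missed the threshold without hepatitis replicate 1 (adjusted p = 0.0529) or 2 (0.12) and HCC replicate 1 (0.0678) or 3 (0.0532).

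Of the other genes among the 10 largest falls, Apoa5, an apolipoprotein that lowers plasma triglyceride, read 1282, 2066 and 2004 in hepatitis and 53.5, 268 and 35.4 in HCC, a difference of -4.13 ± 0.51 (adjusted p = 3.05e-04). Hsd17b6, a steroid and retinoid dehydrogenase, read 2566, 3421 and 3671 in hepatitis and 115, 459 and 123 in HCC, a difference of -3.96 ± 0.40 (adjusted p = 1.14e-04). Amy1, an amylase, read 2439, 3171 and 2216 in hepatitis and 54.9, 827 and 68.7 in HCC, a difference of -3.92 ± 0.74 (adjusted p = 0.00293) that had an adjusted p of 0.0506 from the 6 arrays alone.

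Subunits of oxidative phosphorylation fell in 23 of 25 cases and rose in 0 (median -0.79). Uqcrc2, a core subunit of complex III, read 1452, 1428 and 1499.5 in hepatitis and 498, 397 and 256 in HCC, a difference of -1.93 ± 0.19 (adjusted p = 8.84e-05). Atp5pb, a subunit of ATP synthase, was at 3986, 3597 and 3829 in hepatitis and 1739, 891 and 470.4 in HCC and fell by 2.06 ± 0.35 (adjusted p = 0.00156). The HCC arrays stood in the order replicate 1, 2 and 3 for these genes, the reverse of the order of their Gapdh differences, whose part in the falls was tested only through the covariate. With that difference as a covariate 4 subunits fell, the median was -0.23, Uqcrc2 differed by -1.08 (adjusted p = 0.00691) and Atp5pb by -0.30 (adjusted p = 0.306). From the 6 arrays alone 14 fell, and after quantile normalization 15. Of 30 proteasome subunits 9 fell (30.0%, beside 17.1% of all genes) and 3 rose (10.0%, beside 17.9%). From the 6 arrays alone 2 fell and 0 rose, and under the Gapdh covariate 0 and 1. Psmd8 read 576, 574 and 637 in hepatitis and 309.6, 140.1 and 113 in HCC, in the same order of HCC arrays, and its difference of -1.71 ± 0.27 became -0.42 with the covariate (adjusted p = 0.212). The count of proteasome subunits that fell ranged from 4 to 17 with 1 array left out, highest without HCC replicate 1 and lowest without HCC replicate 2 or 3, and was 5 without hepatitis replicate 2 or 3. The count that rose was 8 without HCC replicate 2 and 1 without HCC replicate 1, HCC replicate 3, hepatitis replicate 1 or hepatitis replicate 2. Of 19 chaperones and stress factors of the endoplasmic reticulum 3 rose (15.8%) and 1 fell (5.3%), with 0 and 1 from the 6 arrays alone and 1 and 0 with the Gapdh covariate. The chaperone Hsp90b1 was at 2651, 2900 and 2273 in hepatitis and 3789.6, 5859 and 3373 in HCC and rose by 0.70 ± 0.17 (adjusted p = 0.0117). The count that rose was 1 without hepatitis replicate 1 or 3 and 6 without HCC replicate 3, and the count that fell 4 without HCC replicate 2.

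In iron handling 4 of 11 genes fell, and the same 4 fell from the 6 arrays alone. With the Gapdh covariate 4 fell as well, but only 3 of them were the same genes. Tfrc, the transferrin receptor of iron uptake, was the 1 that rose, by 0.72 ± 0.23 (adjusted p = 0.0363), a call lost from the 6 arrays alone, with the covariate, with the mean of probe sets and without any 1 array other than hepatitis replicate 3 or HCC replicate 2. Hamp, the hormone hepcidin, read 4616, 7844 and 5142 in hepatitis and 2294, 1731 and 3185 in HCC, a difference of -1.29 ± 0.24 (adjusted p = 0.00264). Tfr2, its upstream transferrin sensor, differed by -1.71 ± 0.26 and Hfe, another part of the sensor, by -1.26 ± 0.16. Hfe was not called with the covariate (-0.74, adjusted p = 0.0793). Of 16 genes of the circadian clock 4 fell (25.0%, beside 17.1% of all genes) and 0 rose. From the 6 arrays alone 1 fell and with the Gapdh covariate 2. Nfil3, a repressor of the clock output, differed by -1.22 ± 0.24 (adjusted p = 0.00352), and the core gene Bmal1 was not called (-0.50 ± 0.29, adjusted p = 0.208). The sources used here do not give the time of day of sampling.

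Of 37 extracellular matrix genes 10 rose and 2 fell (median 0.32). Col1a1, a chain of the main fibrillar collagen, read 318, 122 and 128 in hepatitis and 818, 478 and 608 in HCC. The groups did not overlap and Col1a1 rose by 1.76 ± 0.35 (adjusted p = 0.00347), while Col1a2, the other chain of the same collagen, was not called (-0.34 ± 0.36, adjusted p = 0.514) and neither was Col3a1 (-0.02 ± 0.20, adjusted p = 0.94). Lum, lumican, a proteoglycan that spaces collagen fibrils, read 19.2, 25.2 and 72.3 in hepatitis and 829.6, 127 and 242 in HCC and rose by 2.64 ± 0.57 (adjusted p = 0.00531). Col14a1, a collagen that decorates fibrils, fell by 1.35 ± 0.19. The count that rose was 6 without hepatitis replicate 2, 6 without hepatitis replicate 3, 2 from the 6 arrays alone and 7 with the Gapdh covariate. Of 17 matrix proteases and inhibitors 3 fell (17.65%, near the 17.1% of all genes), Adam8 among them, and 1 rose, Timp3 (0.57 ± 0.15). The count that fell was 5 without HCC replicate 1, 1 without HCC replicate 3, 1 from the 6 arrays alone and 1 with the Gapdh covariate, where 4 rose. Of 18 genes of TGF beta signalling 4 rose and 3 fell, near the background, with 3 and 0 from the 6 arrays alone and 5 and 0 with the Gapdh covariate. Ltbp2, a protein of the extracellular matrix, rose by 0.94 ± 0.15 and Inhbb, a chain of activin B, by 1.50 ± 0.35. The 3 that fell were 1 without hepatitis replicate 1, hepatitis replicate 2 or HCC replicate 3.

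Of 21 markers of stellate cells and myofibroblasts 8 fell and 0 rose. Those that fell were the stellate cell genes Lrat, Colec11, Lhx2, Tcf21, Hand2 and Gfap, the pericyte gene Rgs5 and Myl9, a myosin chain of contractile cells. Lrat, which stores vitamin A in stellate cells, read 113, 207 and 58.8 in hepatitis and 14.2, 9.71 and 9.28 in HCC, a difference of -2.26 ± 0.31 (adjusted p = 4.77e-04). Colec11, a lectin of these cells, read 494, 517 and 543 in hepatitis and 67.5, 136 and 83.0 in HCC and fell by 2.31 ± 0.18 (adjusted p = 3.55e-05). Acta2, smooth muscle actin of myofibroblasts, was at 38.8, 29.7 and 38.5 in hepatitis and 63.5, 34.7 and 42.4 in HCC and was not called (0.26 ± 0.15, adjusted p = 0.205), except without HCC replicate 2 (0.40, adjusted p = 0.0395). Summed intensity of the list was 3716 to 4763 on hepatitis arrays and 3284 to 4157 on HCC arrays. The count that fell was 6 from the 6 arrays alone, with the Gapdh covariate 4, and 4 with array weights.

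Of 12 markers of the sinusoidal endothelium 8 fell and 0 rose (median -0.98). Of those that fell, 5 were also called from the 6 arrays alone and 6 with the Gapdh covariate. Stab2, a scavenger receptor of these cells, read 228, 389 and 459 in hepatitis and 15.2, 94.5 and 25.2 in HCC, a difference of -2.79 ± 0.41 (adjusted p = 7.16e-04). Lyve1, a hyaluronan receptor, differed by -1.76 ± 0.39 and Fcgr2b, an antibody receptor, by -1.84 ± 0.21. The list's summed intensity was 3041 to 4628 on the hepatitis arrays and 1089.7 to 2063 on the HCC arrays, with no overlap. Of 13 general vascular markers 3 fell and 2 rose, near the background, with 2 and 0 from the 6 arrays alone and 2 and 0 with the Gapdh covariate. The difference between the lists was not tested. Pecam1, found on all endothelium, was not called (0.19 ± 0.12, adjusted p = 0.249). Angpt2, a destabiliser of vessels, rose by 0.50 ± 0.11.

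Among 19 markers of macrophages and Kupffer cells, the resident macrophages of liver, 9 fell and 0 rose (median -1.20). Clec4f, a lectin of Kupffer cells, read 1640.2, 1946 and 1866 in hepatitis and 139, 544 and 318 in HCC, a difference of -2.57 ± 0.37 (adjusted p = 6.12e-04). Cd163, a scavenger of haemoglobin, read 248, 193 and 302 in hepatitis and 16.4, 59.7 and 42.6 in HCC and fell by 2.31 ± 0.29 (adjusted p = 3.38e-04). The complement chain C1qb, which macrophages make, was at 1238, 937 and 835 in hepatitis and 309, 116 and 55.1 in HCC, a difference of -2.79 ± 0.49 that became -0.55 with the Gapdh covariate (adjusted p = 0.515). Cd68, a marker of all macrophages, was not called (-0.89 ± 0.34, adjusted p = 0.0694), nor was Itgam of monocytes and neutrophils (-0.18 ± 0.24, adjusted p = 0.605). Summed intensity of the list was 13278 to 17536 in hepatitis and 5741 to 10977 in HCC, and 8 markers fell from the 6 arrays alone and 4 with the covariate. The count that fell was 13 without control replicate 3, 11 without HCC replicate 1 and 7 without hepatitis replicate 1. Control replicate 3, which enters the estimate of spread, had a list mean of 9.03 on the log2 scale, beside 8.10 and 7.94 on control replicates 1 and 2. Cxcl12, a chemokine that stromal and sinusoidal cells and hepatocytes can make, read 935, 2040.2 and 1819 in hepatitis and 80.1, 237 and 97.3 in HCC and differed by -3.45 ± 0.36 (adjusted p = 1.34e-04), or by -1.96 as the mean of its 3 probe sets. It was one of 6 of 32 chemokines and inflammatory mediators that fell (18.75%, near the 17.1% of all genes), beside 1 that rose. From the 6 arrays alone 3 fell and 0 rose. The count that rose was 5 without HCC replicate 2 and 10 with the Gapdh covariate, 2 without hepatitis replicate 1 or HCC replicate 3 and 0 without hepatitis replicate 3.

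Of 20 markers of T and NK cells 2 rose (10.0%, beside 17.9% of all genes) and 1 fell (5.0%, beside 17.1%). From the 6 arrays alone 0 rose and 0 fell, and with the Gapdh covariate 1 and 0. Their summed intensity of 691 to 1115 in hepatitis and 615 to 1137 in HCC overlapped. With single arrays left out the count that rose ranged from 0 to 4, highest without HCC replicate 2 and lowest without hepatitis replicate 3 or HCC replicate 3, and the count that fell from 0 to 3, highest without hepatitis replicate 3. Of 9 markers of B and plasma cells 5 fell and 0 rose, Mzb1 of plasma cells by the largest amount (-0.63 ± 0.14), and 0 fell from the 6 arrays alone or with the Gapdh covariate. Their count was 1 without hepatitis replicate 2, 2 without hepatitis replicate 3, HCC replicate 2 or HCC replicate 3, and 3 without hepatitis replicate 1, cirrhosis replicate 2 or HCC replicate 1. Of 8 MHC class II genes 0 were called in either direction by limma, with medians of 0.67, -0.46 and 0.14 on HCC replicates 1, 2 and 3. No marker of any cell type was at 0 on any array, as is usual for array intensities. The calprotectin subunits S100a8 and S100a9 were the 2 of 13 neutrophil and mast cell markers that fell (15.4%, beside 17.1% of all genes). S100a8 read 519, 325 and 450.2 in hepatitis and 175, 113 and 90.7 in HCC, a difference of -1.67 ± 0.37 (adjusted p = 0.00605), with a control mean of 76.3. Both were called from the 6 arrays alone, and with the Gapdh covariate 0 of the list were.

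Bile duct markers differed between the HCC arrays. Krt19, a keratin of bile duct cells and of some HCC, read 226, 63.3 and 56.1 in hepatitis and 2420.2, 59.1 and 343 in HCC. HCC replicate 1 was about 10 times hepatitis replicate 1, HCC replicate 2 lay within the hepatitis range, and Krt19 was not called (1.86 ± 1.00, adjusted p = 0.185) unless HCC replicate 2 was left out (3.07, adjusted p = 0.00919). Of 14 markers of cholangiocytes and ductular cells 0 rose and 1 fell, the dim Krt23, and 5 rose without HCC replicate 2. With the Gapdh covariate 4 rose and the list median was 2.11, beside 0.32 without it. Both counts were 0 from the 6 arrays alone, and the fall of Krt23 was also lost with the covariate and without any 1 array other than hepatitis replicate 2. The count that rose was 2 without hepatitis replicate 1 and 1 without HCC replicate 1. Their summed intensity was 661 to 1913 on the hepatitis arrays and 769 to 7275 on the HCC arrays. The sum was highest on the array with the highest Gpc3, HCC replicate 1, and the part of bile duct cells in the oncofetal values there was not tested.

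Of 8 erythroid and blood genes 2 fell (25.0%, beside 17.1% of all genes), Hbb and Slc4a1. Hbb, beta globin, read 2857, 904 and 2167 in hepatitis and 377, 353 and 469 in HCC and fell by 2.12 ± 0.42 (adjusted p = 0.00346). Of the list 1 fell from the 6 arrays alone and 0 with the Gapdh covariate. Of 14 skeletal muscle genes 0 rose and 0 fell. Of 11 pancreatic acinar genes 1 rose (9.1%, beside 17.9% of all genes) and 1 fell (9.1%, beside 17.1%). Of 9 adipocyte genes 4 fell (44.4%, beside 17.1% of all genes), 2 from the 6 arrays alone and 1 with the Gapdh covariate. Cfd, adipsin, which adipocytes and macrophages make, read 257, 306 and 293 in hepatitis and 71.4, 62.1 and 110 in HCC, a difference of -1.66 ± 0.23 (adjusted p = 4.95e-04), while Adipoq, adiponectin, was not called (0.12 ± 0.14, adjusted p = 0.563). Tnnc2, a troponin of skeletal muscle, read 45.5, 24.4 and 86.0 in hepatitis and 10.6, 10.5 and 10.6 in HCC and was not called (-1.25 ± 0.76, adjusted p = 0.24). On the control arrays, which enter the estimate of spread, it read 15.1, 336 and 20.9, highest on control replicate 2, and without that array Tnnc2 was called (adjusted p = 0.00785).

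Interferon response genes rose in 9 of 27 cases and fell in 1 (median 0.25). Isg15, the ubiquitin-like protein of that response, read 172, 217 and 164 in hepatitis and 547, 684 and 705 in HCC. All HCC arrays were well above the hepatitis arrays, and Isg15 rose by 1.72 ± 0.13 (adjusted p = 2.47e-05). Usp18, which removes Isg15 from proteins, rose by 1.43 ± 0.23 and Oasl by 1.48 ± 0.27, whereas the classical targets Ifit1 (0.03 ± 0.29, adjusted p = 0.947) and Ifit3 (-0.01 ± 0.14, adjusted p = 0.954) were not called. Of the list 5 rose from the 6 arrays alone, with the Gapdh covariate 4, and with array weights 4. Of 19 immediate early genes 7 rose (36.8%, beside 17.9% of all genes) and 1 fell (5.3%, beside 17.1%), with 5 rising from the 6 arrays alone and 4 under the Gapdh covariate. The 1 that fell, Dusp1, differed by -1.63 ± 0.48 (adjusted p = 0.0248). Dusp1 was not called from the 6 arrays alone (adjusted p = 0.0723) or with the covariate (adjusted p = 0.323). Atf3, a stress-induced factor, was tight in both groups at 73.5, 56.5 and 49.5 in hepatitis and 197, 203 and 203 in HCC and rose by 1.53 ± 0.25 (adjusted p = 0.00117). It was not called with the Gapdh covariate (1.50, adjusted p = 0.0738). Klf6, a factor of injury responses, rose by 1.59 ± 0.20, or by 1.01 as the mean of its 3 probe sets. Fos, the classical early gene, was not called (-0.75 ± 0.46, adjusted p = 0.246).

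**Figure D3:**
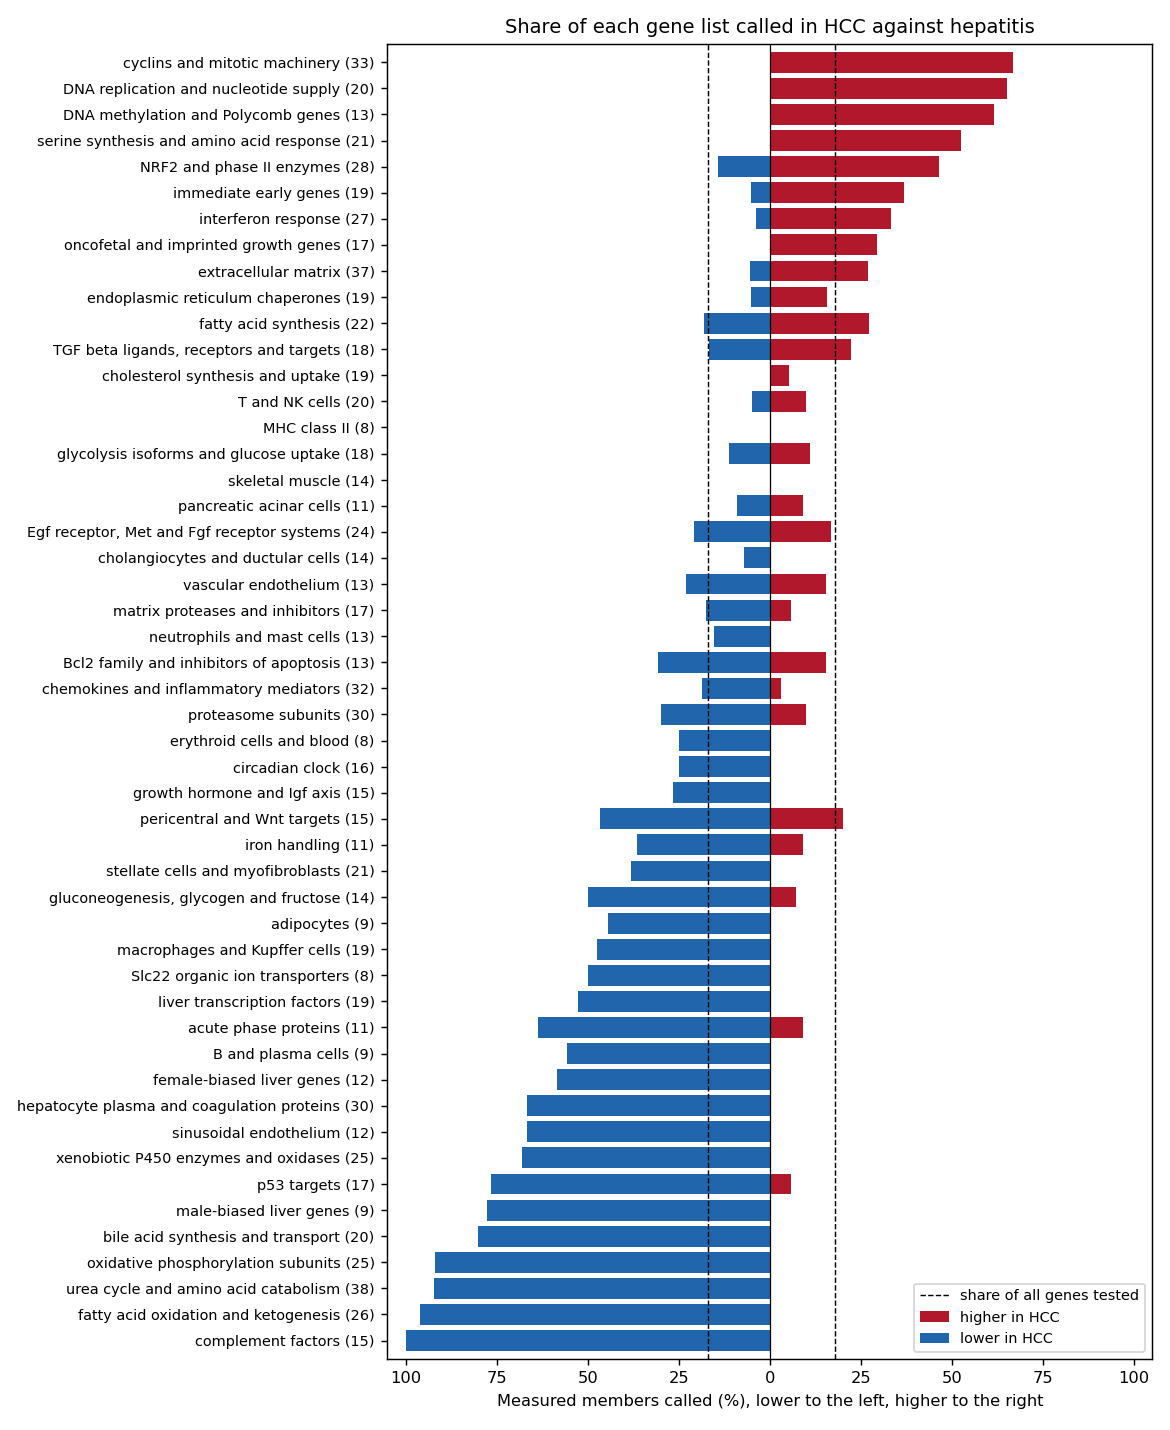
For each of 50 gene lists, with the number of measured members in brackets, the bars give the percentage of members called higher (red, to the right) and lower (blue, to the left) in HCC than in hepatitis; dashed lines mark the shares of all genes, 17.9% and 17.1%. The mitosis list reaches 66.7% to the right, while all 15 complement factors and 96.2% of fatty acid oxidation genes lie to the left.

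The 3 HCC arrays were not alike. HCC replicate 2 was the array nearest to the hepatitis mean for 59.2% of the genes that rose and 51.2% of those that fell, where HCC replicate 1 was nearest for 26.1% and 37.0% and HCC replicate 3 for 14.6% and 11.8%. Correlations across genes, which are not independent replicates, were 0.936 to 0.959 between HCC arrays and 0.984 to 0.987 between hepatitis arrays. Its median against the hepatitis mean was near that of the other arrays for p53 targets (-0.97, -0.88 and -1.01 for replicates 1, 2 and 3), serine synthesis (0.58, 0.63 and 0.59) and fatty acid oxidation (-1.73, -1.89 and -2.45). It was the smallest of the 3 for the mitosis list (1.53, 0.51 and 1.30), for complement (-1.67, -0.56 and -1.74) and for bile acid genes (-3.27, -0.95 and -2.72). For macrophage markers it was instead the most distant (-0.55, -1.55 and -1.11), and for fatty acid synthesis it was the highest (0.12, 0.99 and -0.24). These are medians of the members that were measured, given as a description.

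**Figure D4:**
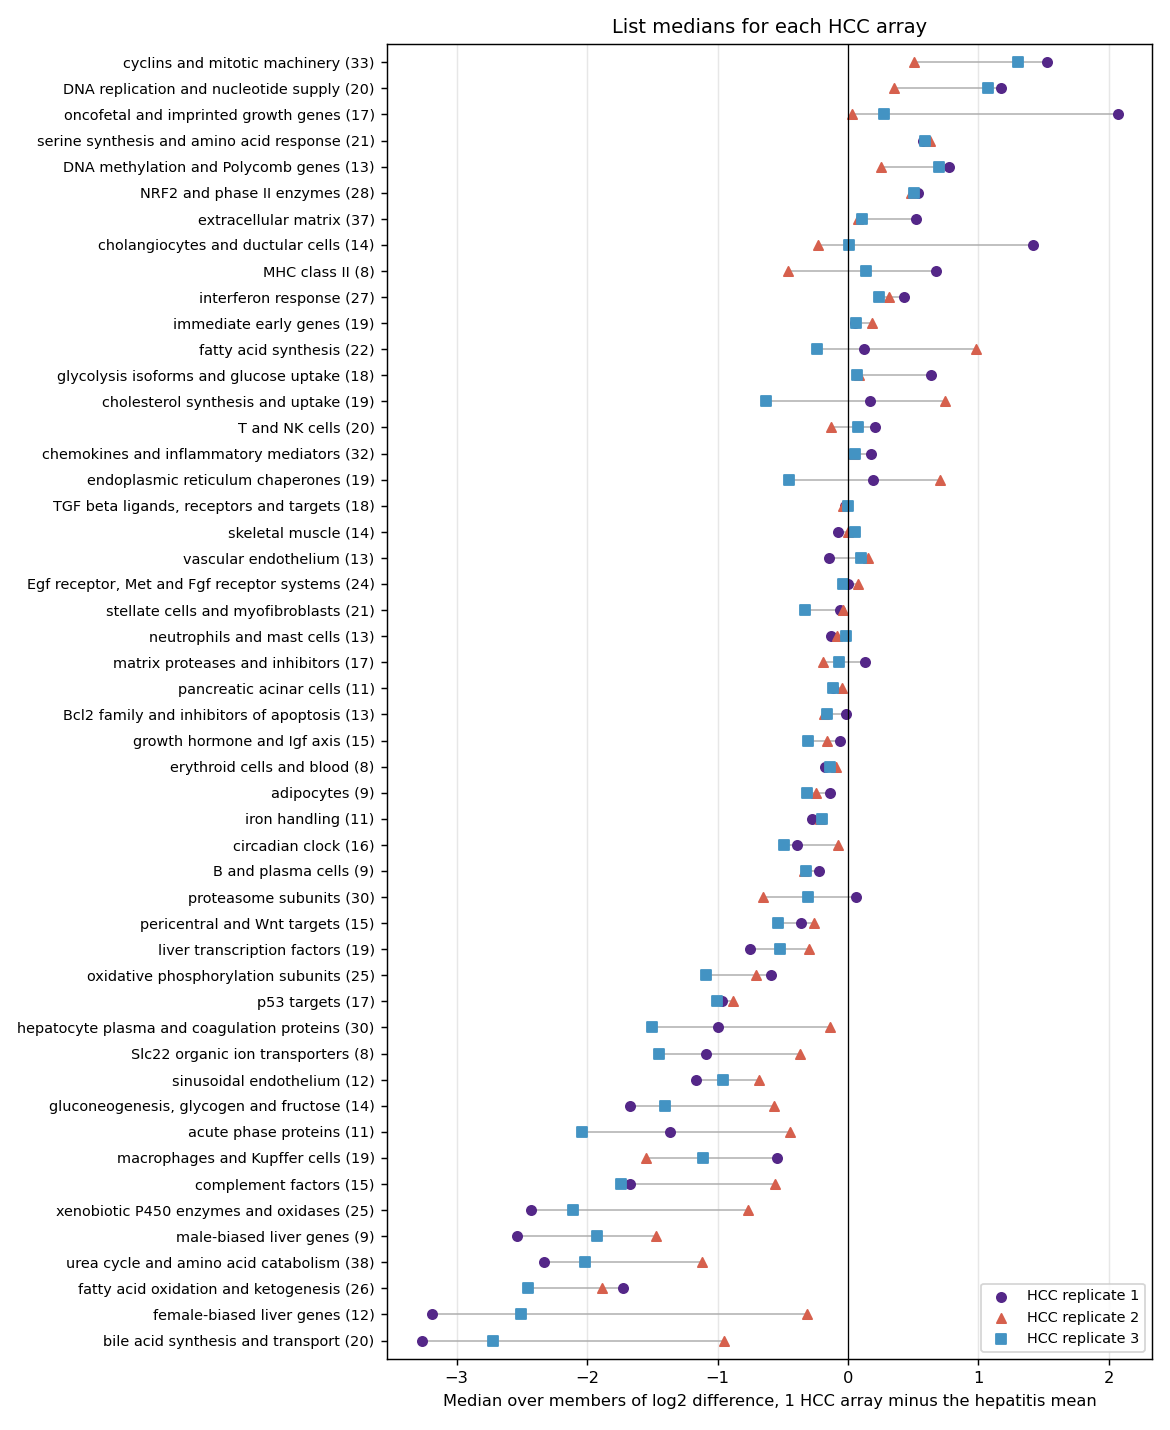
For each gene list, with the number of measured members in brackets, the median over members of the log2 difference of 1 HCC array from the hepatitis mean; circles, triangles and squares are HCC replicates 1, 2 and 3. Replicate 2 lies nearest to 0 in most hepatocyte lists and in the mitosis list, while the 3 arrays lie close together for the serine synthesis, NRF2 and p53 lists.

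Levels in control and cirrhosis show which of the groups stood apart, as medians over list members against the control mean, without a test and with control arrays shared by all 3 values. For p53 targets the medians were 0.57 in hepatitis, 0.09 in cirrhosis and -0.07 in HCC, so that hepatitis was the group away from control. For serine synthesis they were -0.92, -0.97 and -0.33. For the mitosis list they were 0.24, -0.13 and 1.34, for complement 0.12, 0.10 and -1.35 and for oxidative phosphorylation 0.08, -0.05 and -0.54, with HCC the group away. Fatty acid oxidation stood above control in hepatitis and below it in HCC, at 0.31 and -1.48, with cirrhosis at -0.06. Fatty acid synthesis stood below control in every stage, at -1.21, -0.29 and -0.67.

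**Figure D5:**
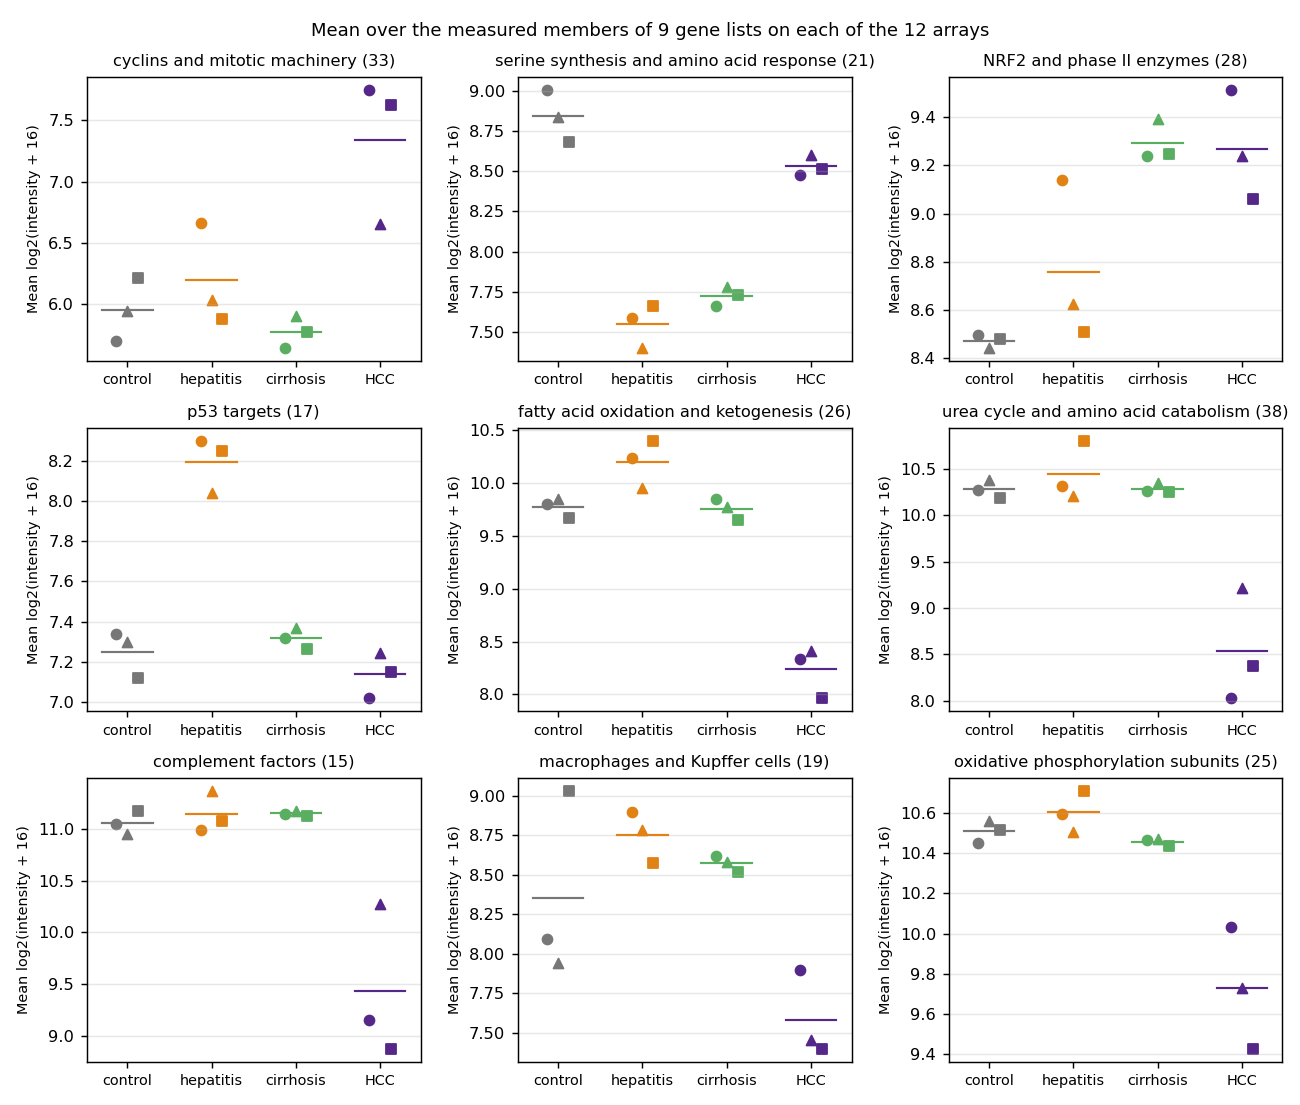
Mean log2(intensity + 16) over the measured members of 9 gene lists on each of the 12 arrays; circles, triangles and squares are replicates 1, 2 and 3 and lines are group means. The p53 list is high in hepatitis alone among the 4 groups, the fatty acid oxidation, urea cycle, complement and oxidative phosphorylation lists are lowest on the 3 HCC arrays, the mitosis list has its highest group mean in HCC with replicate 2 level with hepatitis replicate 1, and hepatitis replicate 1 lies near the cirrhosis and HCC arrays in the NRF2 list.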

How the data were processed

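The authors deposited a linear intensity for every probe set on each of 12 single-colour Affymetrix Rat 230 2.0 arrays of TRIzol-extracted RNA. MAS5 and RMA are both named in the submitters' processing notes, with no role. All 12 value columns were used. Of 31099 probe sets, 57 of them controls, 20826 had 1 gene in the platform annotation, 436 several and 9780 none, with 9 symbols updated through RefSeq genes of GRCr8. Each gene was read from its brightest probe set by the mean of the 12 arrays, and 4526 genes had several. Tests used limma 3.58.1 in R 4.3.3 (lmFit with 4 group means, eBayes, prior df 1.80) on log2(intensity + 16). They were 2-sided, with Benjamini-Hochberg adjustment over 14213 genes. The fit was checked on simulated data that gave each gene the same spread in all groups. That check therefore does not cover the wider spread of the HCC arrays. Tables and figures used Python 3.11.15, pandas 2.3.3 and matplotlib 3.10.9. Alternatives are in the closing section.

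Members, lists and tests were chosen with earlier results of these data known. The 50 lists name 1031 genes, of which 918 were measured. Named genes are the 10 largest rises and the 10 largest falls among called genes whose groups did not overlap, up to 4 called members of each list (the one with the smallest adjusted p where none was called), and a set of markers. Symbols that name no gene were passed over. Other genes are named, after their values were seen, to show members that were or were not called.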

Additional observations from a re-analysis of the deposited data

How the results depend on the processing

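Other settings left the direction of most results as it was. The genes called higher and lower numbered 2544 and 2428. From the 6 arrays alone they were 1131 and 1258, and with the Gapdh 3′ to 5′ difference as covariate 1489 and 951. With an added constant of 1 or 64, the dimmest 30% of genes left out, the mean of all probe sets, quantile normalization, array weights, or trend and robust estimates, both counts stayed within 1.5 times. With the replicate number as a block (replicate block) they were 2452 and 2363. The deviations of same-numbered hepatitis and HCC arrays correlated at 0.365, 0.199 and 0.072 across genes, so that the numbers do not pair the samples by the rule used, although each HCC array correlated best with the hepatitis array of its own number. Leaving out 1 array gave 1847 to 3136 genes higher and 2044 to 2730 lower, and the count of genes higher was lowest without hepatitis replicate 2 and highest without HCC replicate 2.

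Of 194 genes chosen by rule 186 were called, which follows from the rule, since it takes mostly called genes. They were picked largely for the size of their change and do not stand for all called genes. Of the 186, 77 were called under every alternative and 150 whichever array was left out. From the 6 arrays alone 75 lost their call. With the Gapdh covariate 85 lost it and 6 turned direction, none of them called there: Tpi1 (0.36), Psmd6 (0.38), Psma5 (0.53), Ctsk (0.12), Id1 (0.28) and Atf6 (-0.001). The cause was not tested. Array intensities give no counting depth, and values under 16 carry little information, so changes of dim genes are understated.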
